A study of Mus musculus with 9 samples.

Results

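The 10 genes described here encode regulatory cytokines, parts of TGF-beta activation and regulatory chemokines, and their RNA was compared across splenic B cell subsets of naive mice. They were *Il10*, *Il6*, *Ebi3*, *Il12a*, *Tgfb1*, *Tgfb3*, *Lrrc32*, *Ltbp4*, *Ccl22* and *Ccl3*. The 10 genes were taken by their symbols, and each has 1 of the 24459 rows of the deposited expression table. RNA-seq was performed on 9 libraries, 3 each of follicular (FO) B cells, marginal zone (MZ) B cells and B cells with low IgD (BDL). Each library came from a separate sort of spleen cells pooled from 5 untreated mice, so single mice cannot be resolved and p-values measure the spread between sorted pools. The mice were 8 to 10 weeks old, and no gene was altered in any group. The labels name the strain as C57/BL6 and the paper names B10.PL, and which one holds was not tested. FO B cells were sorted as B220+ with intermediate IgM and CD21, CD23+, CD93- and high IgD. BDL shared those markers but had low or no IgD, and MZ B cells were B220+ with high IgM and CD21, CD23- and CD93-. Libraries that carry the same date in their titles were given the same replicate number, 1 of each subset per date.

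B cells that restrain immune responses are often identified by the cytokines they secrete. IL-10 is the cytokine most often used to define regulatory B cells, and MZ B cells are known as a source of it. EBI3 and IL-12 p35, the product of *Il12a*, pair to form IL-35. TGF-beta is secreted in a latent complex that latent TGF-beta binding proteins anchor in the matrix and that GARP, the product of *Lrrc32*, holds on the cell surface, and it acts only once it is freed. CCL22 draws cells that carry CCR4, among them regulatory T cells, whereas CCL3 draws inflammatory cells such as monocytes. The study asked how BDL differ from FO and MZ B cells, and it described regulatory activity of BDL that did not need IL-10.

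Every library had high levels of the B cell markers *Cd79a*, at 930 to 1762, and *Ms4a1*, at 402 to 852 FPKM (fragments counted for a gene over its length in kilobases and the depth of the library). *Fcer2a*, which encodes CD23, was at 389 to 538 FPKM in the BDL and FO libraries and at 26.0 to 34.5 FPKM in the MZ libraries, in the order of the CD23 gates. The table holds no read counts. From the spacing of low values, 1 fragment was estimated to give 0.0137 to 0.0185 FPKM on a transcript of 1 kb, and fragment numbers below are approximations from this value and the longest transcript of a gene. In these bulk samples, fewer cells that express a gene and less RNA per cell cannot be told apart.

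The RefSeq promoter table held 7 of the 10 genes, and promoters are shown for both members with an NF-kB match (*Il6* and *Ebi3*) and for both chemokines. *Il10*, *Tgfb3* and *Lrrc32* had none. The 250 bases upstream of the RefSeq start on GRCm38.p6 are given 5′ to 3′ on the strand of the gene, with motif matches in capitals. The window lies at chr5:30012864-30013113 on the plus strand for *Il6*, at chr17:55952373-55952622 on the plus strand for *Ebi3*, at chr8:94745434-94745683 on the plus strand for *Ccl22* and at chr11:83649379-83649628 on the minus strand for *Ccl3*.
Il6: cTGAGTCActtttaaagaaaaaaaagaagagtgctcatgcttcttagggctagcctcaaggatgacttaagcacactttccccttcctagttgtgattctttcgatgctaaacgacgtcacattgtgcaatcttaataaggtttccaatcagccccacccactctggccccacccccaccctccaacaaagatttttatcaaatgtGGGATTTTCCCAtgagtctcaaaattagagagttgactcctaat
Ebi3: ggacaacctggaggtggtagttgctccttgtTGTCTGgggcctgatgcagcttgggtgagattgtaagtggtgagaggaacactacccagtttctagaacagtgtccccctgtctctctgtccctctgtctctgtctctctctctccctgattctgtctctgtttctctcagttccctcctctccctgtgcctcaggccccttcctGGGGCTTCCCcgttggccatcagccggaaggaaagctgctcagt
Ccl22: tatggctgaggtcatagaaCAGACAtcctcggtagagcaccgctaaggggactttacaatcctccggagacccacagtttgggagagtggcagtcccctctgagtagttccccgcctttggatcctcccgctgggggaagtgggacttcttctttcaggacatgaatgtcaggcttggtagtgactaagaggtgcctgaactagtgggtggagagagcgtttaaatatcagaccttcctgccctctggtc
Ccl3: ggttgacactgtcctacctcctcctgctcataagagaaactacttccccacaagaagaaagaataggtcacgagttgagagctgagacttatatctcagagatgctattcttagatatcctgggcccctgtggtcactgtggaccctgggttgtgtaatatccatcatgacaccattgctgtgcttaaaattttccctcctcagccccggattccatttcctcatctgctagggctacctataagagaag

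The motifs searched on both strands were NF-kB by name, AP-1 (TGANTCA), CRE (TGACGTCA), SMAD (CAGACA), RBPJ (TGGGAA), STAT (TTCNNNGAA), the E-box CACGTG and the TATA box (TATAAA). The capitals in *Il6* mark an AP-1 match from -249 to -243 and an NF-kB match from -44 to -35, which overlaps an RBPJ match from -38 to -33, counted from the start. *Ebi3* held a SMAD match from -219 to -214 and an NF-kB match at the same place as in *Il6*, from -44 to -35. Of 32851 windows of this length, 3.899% held the NF-kB motif, 6.749% held AP-1, 21.594% held RBPJ and 17.132% held SMAD. *Ccl22* held a SMAD match from -231 to -226, and *Ccl3*, *Tgfb1* and *Ltbp4* held no match. *Il12a* held 1 RBPJ match, from -62 to -57. The remaining motifs, which had no match in a member, were held by 1.546% (CRE), 7.02% (STAT), 6.021% (E-box) and 12.368% (TATA box) of the windows. These matches describe the letters and were not tested as binding sites.

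The members fell into clearly different patterns. *Il10* and *Ccl3* were far higher in MZ B cells than in both other subsets, and *Lrrc32* was highest in BDL. *Ccl22* was at like levels in BDL and MZ B cells and near 0 in FO B cells. *Tgfb1* and *Il12a* were lowest in MZ B cells. Genes were tested with limma on log2(FPKM + 0.1), and calls required an adjusted p below 0.05 together with a difference of at least 2-fold on that scale. The added constant makes the fold of a low gene smaller than the ratio of its FPKM. Where a difference is described as short of 2-fold, the log2(FPKM + 0.1) scale is meant.

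**Figure D1:**
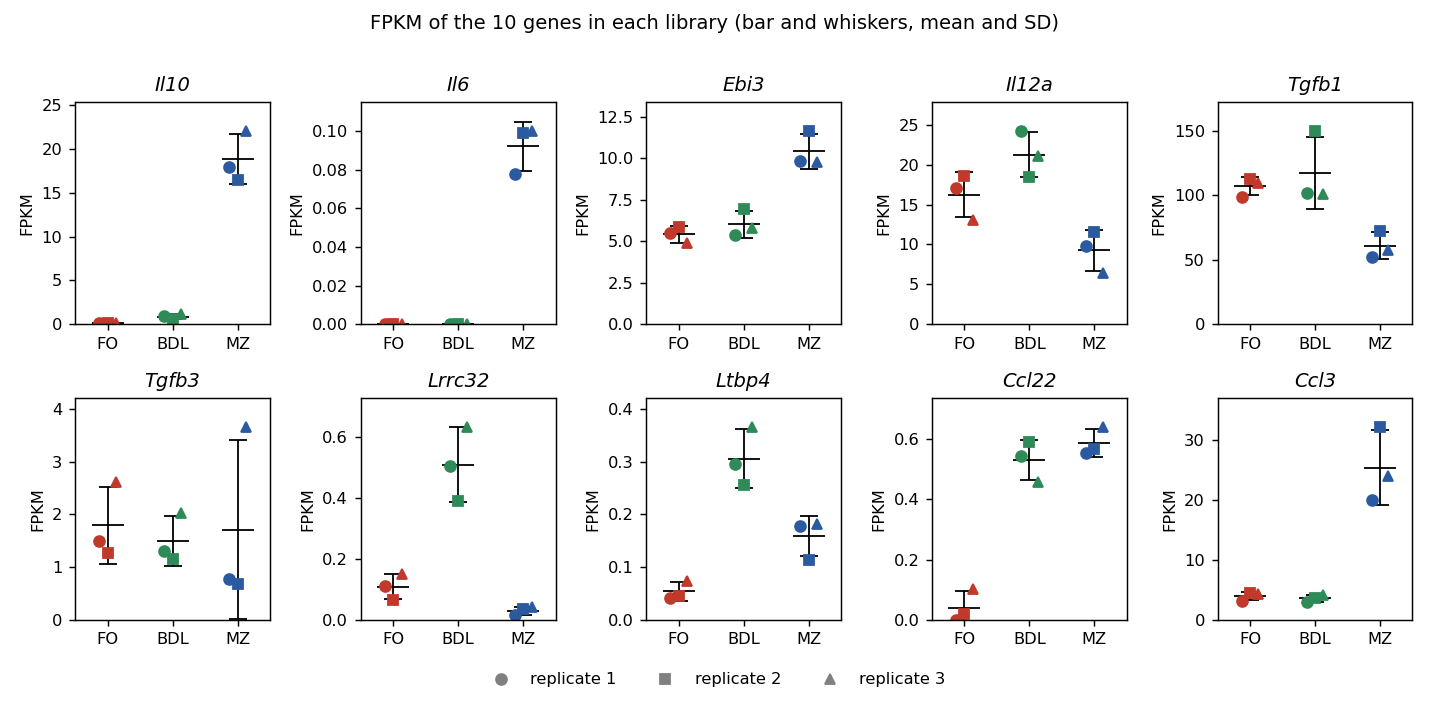
FPKM (y axis, linear and separate for each gene) of the 10 genes in the FO (red), BDL (green) and MZ (blue) libraries, with the replicate number as the symbol. Lines and whiskers give the mean and SD of 3 libraries, and the 3 BDL libraries lie above all others for *Lrrc32* and *Ltbp4*, the 3 MZ libraries for *Il10*, *Il6*, *Ebi3* and *Ccl3*.

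Between BDL and FO B cells, 4 of the 9 members tested rose in BDL and 0 fell (0 also at an unadjusted p under 0.05), where 2.28% of the 13472 genes tested were called, 1.97% higher and 0.304% lower. The genes that fell were 41, or 64 with the date as a replicate block, and no member was among either. The 4 members were *Il10*, *Lrrc32*, *Ltbp4* and *Ccl22*. The study plotted these 4 genes, from the same libraries, among genes higher in BDL, so their direction here is not independent evidence. The ranges of these 4 genes did not overlap between the subsets, which held for 23.3% of all genes tested with BDL higher and for 10.7% with BDL lower, and the other 6 members overlapped. The median log2 difference of the 9 members was 0.39 and that of all genes was 0.04. Of the MZ B cell list, which summed to 685 to 756 FPKM in BDL, 405 to 479 in FO and 1812 to 2206 in MZ B cells, limma called 2 of 6 genes higher in BDL than in FO B cells. These were *Plac8*, at 505 to 567 against 193 to 271 FPKM, and *Cd36*, at 19.0 to 26.6 against 9.316 to 11.999 FPKM. *Plac8* gave most of the rise in the sum. *Cr2*, *Dtx1*, *Cd1d1* and *S1pr3* of the list were not called, with log2 differences of -0.40, -0.04, 0.30 and 0.85. Among markers of other cells, the haemoglobin gene *Hbb-b1* was called, at 5.13 to 6.42 FPKM in BDL and 1.19 to 2.02 FPKM in FO B cells (log2 difference 1.94, limma adjusted p = 0.00533). The regulatory T cell list (*Foxp3*, *Ctla4*, *Il2ra*, *Ikzf2*) summed to 2.97 to 7.59 FPKM in BDL and 1.49 to 2.88 FPKM in FO B cells, but limma called 0 of its 3 tested genes (1 at an unadjusted p under 0.05). Its defining gene *Foxp3* was at 0.0738 to 0.125 FPKM in BDL and 0.101 to 0.197 FPKM in FO B cells. Of the plasma cell list, which summed to 128 to 207 FPKM in BDL and 186 to 223 FPKM in FO B cells, *Sdc1* (CD138) was called, at 6.86 to 9.58 against 1.22 to 1.67 FPKM. *Irf4* gave most of both sums, at 101 to 180 FPKM in BDL and 165 to 202 FPKM in FO B cells. *Prdm1*, *Igj*, *Xbp1* and *Irf4* of that list were not called, with log2 differences of 0.76, 0.65, -0.19 and -0.42. Of the myeloid list, which summed to 10.8 to 15.3 and 8.35 to 11.9 FPKM, *Emr1* (F4/80) was called, at 3.13 to 3.88 against 0.640 to 0.887 FPKM. The study listed F4/80 among surface proteins whose rise in its RNA-seq was not borne out by flow cytometry. The part of other cells that carry these markers in the differences was not tested.

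Between BDL and MZ B cells, 2 members rose in BDL (*Lrrc32* and *Il12a*) and 2 fell (*Il10* and *Ccl3*), where 8.81% of all genes were called, 3.77% higher and 5.04% lower in BDL. Without overlap of the libraries, 4 of the 10 members were higher and 4 lower, the untested *Il6* among the lower, against 21.5% and 17.4% of all genes tested. In MZ against FO B cells 3 members rose (*Il10*, *Ccl22* and *Ccl3*) and 0 fell (3 were lower at an unadjusted p under 0.05), where 10.2% of all genes passed, 6.62% with MZ B cells higher and 3.59% with MZ B cells lower. Here 6 of the 10 members were higher, the untested *Il6* among them, and 3 lower without overlap, against 24.2% and 21.9% of all genes tested. The median log2 difference of the 9 members was 0.18 for BDL against MZ and 0.74 for MZ against FO B cells, and that of all genes was 0.04 and -0.003. Markers of other cells called higher in BDL than in MZ B cells were *Sdc1* (log2 difference 4.99), *Emr1* (2.19), *Ccr7* (1.89), *Cd209a* (1.41), *Hbb-b1* (1.40) and *Klrb1c* (1.06). Called lower were *Prdm1* (-2.12), of the plasma cell list as *Sdc1* is, *Itgax* (-1.31), of the dendritic cell list as *Ccr7* and *Cd209a* are, and *Cd68* (-1.11). Their part in the differences was not tested. The comparisons share libraries and are not independent.

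**Figure D2:**
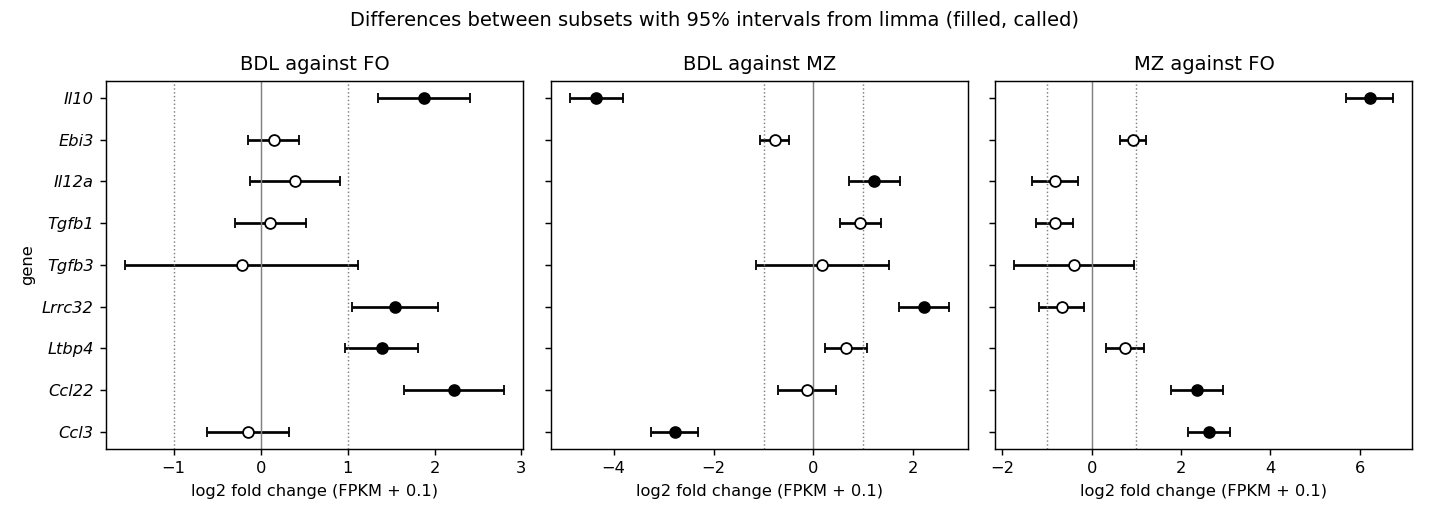
The log2 difference of FPKM + 0.1 (x axis, a separate scale for each panel) with its 95% interval from limma for the 9 tested members in BDL against FO, BDL against MZ and MZ against FO B cells. Filled points are called and dotted lines mark 2-fold, and the filled points are *Il10*, *Lrrc32*, *Ltbp4* and *Ccl22* on the left, *Il10*, *Il12a*, *Lrrc32* and *Ccl3* in the middle, and *Il10*, *Ccl22* and *Ccl3* on the right.

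*Il10* lies on chromosome 1 (132916422 to 132921551, plus strand, NCBIM37, the mm9 build, as are all gene positions that follow) and has 5 exons in its 1 annotated transcript. Its FPKM was 0.144, 0.145 and 0.165 in the FO libraries, 0.885, 0.543 and 1.147 in the BDL libraries and 17.96, 16.51 and 22.05 in the MZ libraries. The subsets did not overlap, and the order was FO, BDL and MZ B cells. The BDL mean of 0.859 ± 0.303 FPKM (SD, n = 3) was 5.68 times the FO mean of 0.151 ± 0.0117, and the MZ mean of 18.8 ± 2.87 was 21.9 times the BDL mean. On the log2 scale *Il10* rose by 1.88 in BDL over FO B cells (SE 0.231, limma adjusted p = 0.00302), and it was 4.35 lower in BDL than in MZ B cells (limma log2 difference -4.35, SE 0.231, adjusted p = 8.04e-06). It was 125 times higher in MZ than in FO B cells by mean FPKM, a log2 difference of 6.23 (limma adjusted p = 1.00e-06). The FO values rest on about 11.3 to 12.5 fragments per library and the BDL values on about 51.8 to 94.1.

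The gene is regulated by several transcription factors, and a list of the IL-10 family, its receptor and such regulators held 16 genes, of which 14 were tested. In BDL against FO B cells 1 rose (*Il10*) and 1 fell (*Socs3*), with a list median of 0.09 against 0.04 for all genes. *Socs3*, a feedback inhibitor of cytokine signalling through STAT3, was at 6.37, 7.28 and 9.40 FPKM in BDL and 14.2, 18.8 and 23.3 FPKM in FO B cells (log2 difference -1.27, limma adjusted p = 0.0213). All 3 BDL libraries lay below the FO libraries. In BDL against MZ B cells 2 rose and 4 fell (list median -0.23), and in MZ against FO B cells 5 rose and 2 fell (list median -0.03).

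The regulators called between MZ and the other subsets included *Ahr*, *Prdm1* and *Nfil3*, which encode the aryl hydrocarbon receptor, Blimp-1 and NFIL3. *Ahr* was at 14.8, 15.4 and 38.5 FPKM in MZ B cells, 3.66, 2.55 and 6.73 FPKM in BDL and 0.731, 0.844 and 3.04 FPKM in FO B cells. It was higher in MZ than in FO B cells by 3.94 on the log2 scale (limma adjusted p = 0.00168) and lower in BDL than in MZ B cells (log2 difference -2.35, limma adjusted p = 0.0212). In BDL against FO B cells *Ahr* was not called, and replicate 3 was the highest of its subset each time. *Prdm1* was at 3.497 to 5.41 FPKM in MZ B cells, 0.725 to 1.18 FPKM in BDL and 0.376 to 0.814 FPKM in FO B cells, with log2 differences of 2.89 for MZ over FO and -2.12 for BDL against MZ B cells (limma adjusted p = 1.69e-04 and 0.00110). *Nfil3* followed with 1.94 and -1.79 (limma adjusted p = 0.00741 and 0.0114). *Bhlhe40*, the remaining regulator that rose in MZ over FO B cells, did so by 1.37 (limma adjusted p = 0.00139).

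The opposite pattern was seen for *Maf*, which encodes the factor c-Maf, and for *Il24*, a cytokine of the IL-10 family. *Maf* was at 0.842, 1.06 and 1.44 FPKM in BDL, 0.728, 1.06 and 1.44 FPKM in FO B cells and 0.313, 0.146 and 0.340 FPKM in MZ B cells. It was higher in BDL than in MZ B cells by 1.75 on the log2 scale (limma adjusted p = 0.00402) and fell in MZ against FO B cells (-1.68, limma adjusted p = 0.00457). *Il24* was higher in BDL than in MZ B cells by 1.34 (limma adjusted p = 0.00135) and fell in MZ against FO B cells (-1.79, limma adjusted p = 2.35e-04).

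*Il6* (chromosome 5, 30339701 to 30346508, plus strand, 5 exons) encodes a cytokine that B cells can secrete as effector cells. It was listed at 0 in all 3 FO and all 3 BDL libraries and at 0.0777, 0.0990 and 0.1001 FPKM in the MZ libraries. The MZ values correspond to about 5, 6 and 7 fragments. A count of 0 allows up to 3 fragments, or 0.0379 to 0.0489 FPKM in the FO and BDL libraries, so a level below that was not detectable at this depth, and these limits cover counting error only. The mean of *Il6* over the 9 libraries was under the minimum of 0.1 FPKM and it was not part of the main test. The exact permutation test of MZ against either subset gave p = 0.1 (two-sided), the smallest that 3 libraries against 3 can give. With no minimum, and 18518 rows in the limma fit, the log2 difference was -0.94 for BDL against MZ and 0.94 for MZ against FO B cells. Both were short of 2-fold. *Il6* entered that fit only through its MZ values, and the FO and BDL values of 0 have no spread, so no p-value of that fit is given. No ratio of FPKM is given against groups listed at 0, and these libraries could not order BDL against FO B cells. The study measured less *Il6* RNA in BDL than in FO B cells by quantitative PCR, and it stated that its RNA-seq did not show this.

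Both subunits of IL-35 were detected in every library. *Ebi3* (chromosome 17, 56092046 to 56096444, plus strand, 5 exons) was at 5.53, 5.87 and 4.87 FPKM in FO B cells, 5.36, 6.94 and 5.82 in BDL and 9.84, 11.6 and 9.76 in MZ B cells. The MZ libraries were above all others, and BDL and FO B cells overlapped. The BDL mean of 6.04 ± 0.815 and the FO mean of 5.42 ± 0.505 differed by 0.15 on the log2 scale, with a 95% interval of -0.14 to 0.44. *Ebi3* was higher in MZ B cells by 0.93 over FO B cells (limma adjusted p = 8.85e-04) and lower in BDL than in MZ B cells (log2 difference -0.78, limma adjusted p = 0.00246), in both cases short of 2-fold and not called. Its exons overlap 155 nt of *Gm16712* on the opposite strand, and since the labels describe reads that are not strand specific while the paper names a stranded kit, reads of the 2 genes may not be separable.

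*Il12a* (chromosome 3, 68494566 to 68502469, plus strand) went the other way. It was at 17.1, 18.6 and 13.1 FPKM in FO B cells, 24.2, 18.5 and 21.1 in BDL and 9.75, 11.6 and 6.47 in MZ B cells. Every MZ library was below every other library, and 1 BDL library lay within the FO range. The BDL mean of 21.3 ± 2.86 FPKM was 2.30 times the MZ mean of 9.27 ± 2.60, and *Il12a* rose in BDL over MZ B cells by 1.22 on the log2 scale (SE 0.224, limma adjusted p = 0.00461). The difference between BDL and FO B cells (FO mean 16.2 ± 2.82) was 0.39 with an interval of -0.12 to 0.91 (limma adjusted p = 0.327). In MZ against FO B cells it was -0.83 (limma adjusted p = 0.0261), short of 2-fold. Without MZ replicate 3 the BDL and MZ difference was 0.99, under 2-fold and not called, and without MZ replicate 2 that between MZ and FO B cells was -1.01 and was called.

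The partners with which these subunits form other cytokines were at or near 0. *Il12b*, the p40 subunit that *Il12a* needs for IL-12, was listed at 0 in all 9 libraries. *Il27*, the p28 subunit that pairs with EBI3 to form IL-27, was at 0 in 7 libraries and at 0.0260 and 0.0294 FPKM in BDL replicate 2 and MZ replicate 3. *Il23a*, the p19 subunit of IL-23, was at 0.0757 to 0.343 FPKM over the libraries and was not called in any comparison. Of the 10 genes of the IL-12 family list 7 were tested, and limma called 0 in BDL against FO B cells (1 at an unadjusted p under 0.05, list median 0.15), 1 rose in BDL over MZ B cells (*Il12a*), and 2 rose and 1 fell in MZ against FO B cells. The receptor genes *Il12rb1* and *Il6st* rose in MZ B cells by 1.62 and 1.16 (limma adjusted p = 2.36e-04 and 0.0318), and *Il27ra*, the receptor for IL-27, fell by 1.10 (limma adjusted p = 0.00368). The list medians were 0.16 for BDL against MZ and -0.37 for MZ against FO B cells.

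*Tgfb1* (chromosome 7, 26472021 to 26490096, plus strand, 7 exons) had the highest FPKM of the 10 genes in every library. It was at 99.1, 112 and 110 FPKM in FO B cells, 102, 150 and 101 in BDL and 52.4, 72.5 and 57.4 in MZ B cells. BDL replicate 2 stood above the other BDL libraries, BDL and FO B cells overlapped, and the MZ libraries were lowest. The means were 107 ± 7.06 FPKM in FO B cells, 118 ± 28.0 in BDL and 60.8 ± 10.4 in MZ B cells. BDL and FO B cells differed by 0.11 on the log2 scale (95% interval -0.30 to 0.52). BDL were 0.94 above MZ B cells (limma adjusted p = 0.00548) and MZ B cells were below FO B cells (-0.83, limma adjusted p = 0.00955), each short of 2-fold. The BDL and MZ difference passed 2-fold and was called without BDL replicate 1 (1.03), BDL replicate 3 (1.04) or MZ replicate 2 (1.07).

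*Tgfb3* (chromosome 12, 87397694 to 87419991, minus strand, 7 exons), a ligand of the same receptors, had its highest values on one date. It was at 1.49, 1.26 and 2.61 FPKM in FO B cells, 1.30, 1.16 and 2.03 in BDL and 0.771, 0.687 and 3.66 in MZ B cells. Replicate 3 was the highest library of each subset, and all subsets overlapped. The subset differences on the log2 scale were -0.22 for BDL against FO, 0.18 for BDL against MZ and -0.40 for MZ against FO B cells (limma adjusted p = 0.850, 0.855 and 0.673), each with an SE of 0.581. *Tgfb2* was at 0.00365 to 0.0554 FPKM in all libraries, under the minimum for the test. In replicate 3 against replicates 1 and 2, with the subset as a term, *Tgfb3* differed by 1.25 (SE 0.265, limma adjusted p = 0.0840), and 0.334% of all genes were called. This contrast was chosen after the values were seen. The summed NK, T and myeloid cell lists were highest in replicate 3 of each subset. The erythroid and endothelial lists were not highest in replicate 3 of any subset. The part of such cells in the values of *Tgfb3* was not tested. The NK cell list (*Ncr1*, *Klrb1c*, *Klrk1*, *Gzma*, *Eomes*) summed to 4.820, 3.995 and 3.989 FPKM in replicate 3 of FO, BDL and MZ B cells and to 0.840 to 2.12 FPKM in the other libraries. The T cell list summed to 2.11, 2.41 and 2.12 FPKM against 0.804 to 1.78, and the myeloid list to 11.9, 15.3 and 20.3 FPKM against 8.35 to 13.8. Of the NK sums in replicate 3, *Gzma* alone gave 3.546, 2.591 and 2.797 FPKM in FO, BDL and MZ B cells. *Klrb1c* was not highest in replicate 3 of BDL (0.413, 0.437 and 0.365 FPKM).

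**Figure D3:**
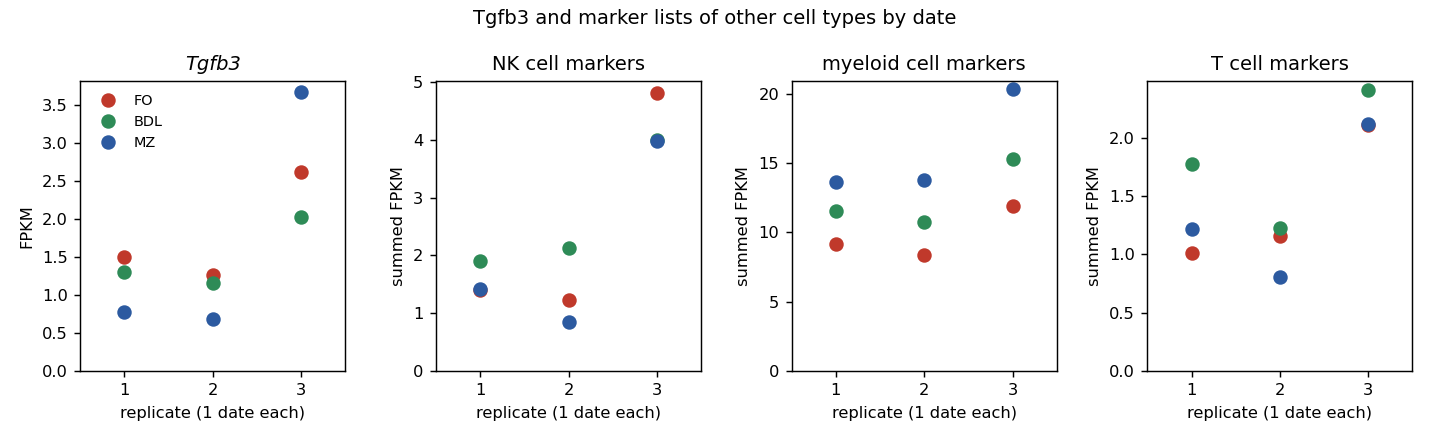
FPKM of *Tgfb3* and summed FPKM of the NK, myeloid and T cell marker lists (y axes, linear) by replicate number (x axis), for FO (red), BDL (green) and MZ (blue) libraries, 1 point per library. Replicate 3 is the highest point of each subset in all 4 panels.

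With replicates 1 and 2 only, a choice made after the data were seen, *Tgfb3* was lower in MZ B cells than in FO B cells (log2 difference -0.83, limma adjusted p = 0.0327, short of 2-fold). Over the alternatives to that comparison the adjusted p ranged from 0.0327 to 0.999. The BDL and FO difference was then -0.15 and the BDL and MZ difference 0.68.

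Of the 4 TGF-beta members, *Lrrc32* and *Ltbp4* were called in BDL against FO B cells, and the ligands *Tgfb1* and *Tgfb3* were not. The members were chosen with earlier results of these data known, so this split is not a result of its own. *Lrrc32* (chromosome 7, 105642732 to 105650341, plus strand, 2 exons) encodes GARP, which is best known on activated regulatory T cells and platelets. It was at 0.110, 0.0662 and 0.151 FPKM in FO B cells, 0.503, 0.389 and 0.633 in BDL and 0.0142, 0.0339 and 0.0408 in MZ B cells. The subsets did not overlap, and BDL were highest and MZ B cells lowest. The BDL mean of 0.508 ± 0.122 FPKM was 4.67 times the FO mean of 0.109 ± 0.0422 and 17.2 times the MZ mean of 0.0296 ± 0.0138. *Lrrc32* rose in BDL by 1.54 over FO B cells and by 2.22 over MZ B cells on the log2 scale (SE 0.216, limma adjusted p = 0.00533 and 1.62e-04). The mean of *Lrrc32* over the 9 libraries, 0.216 FPKM, passed the minimum of 0.1 FPKM largely through its BDL values. With no minimum the call in BDL over FO B cells held (1.54, limma adjusted p = 0.00559). MZ and FO B cells differed by -0.67 (limma adjusted p = 0.0504), and by -1.59 with a constant of 0.01, where the difference was called. By mean FPKM, FO B cells were 3.67 times MZ B cells. The MZ values rest on about 3.0, 7.0 and 10.1 fragments.

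Beside *Lrrc32*, the platelet list (*Pf4*, *Ppbp*, *Itga2b*, *Gp1ba*, *Gp9*, *Gp6*) summed to 1.19 to 2.04 FPKM in BDL, 2.15 to 2.60 FPKM in FO and 1.42 to 1.98 FPKM in MZ B cells, with *Ppbp* at 0 in every library and *Pf4* at 0 in 7 of 9. The regulatory T cell list summed to 2.43 to 9.24 FPKM in MZ B cells and to 2.97 to 7.59 FPKM in BDL, and *Ctla4* gave 7.85 of the 9.24 FPKM of the highest library. *Foxp3* was at 0.0738 to 0.197 FPKM over all libraries. *Sdc1*, *Emr1* and *Hbb-b1* were called higher in BDL than in both other subsets, as *Lrrc32* was. The part of cells that carry these markers in the level of *Lrrc32* was not tested.

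*Ltbp4* (chromosome 7, 28090155 to 28122711, minus strand, 10 annotated transcripts) encodes a latent TGF-beta binding protein. It was at 0.0421, 0.0456 and 0.0740 FPKM in FO B cells, 0.295, 0.255 and 0.366 in BDL and 0.179, 0.114 and 0.181 in MZ B cells. The subsets did not overlap, in the order FO, MZ and BDL. The BDL mean of 0.306 ± 0.0564 FPKM was 5.67 times the FO mean of 0.0539 ± 0.0175, and the MZ mean was 0.158 ± 0.0380. *Ltbp4* rose in BDL over FO B cells by 1.39 on the log2 scale (SE 0.182, limma adjusted p = 0.00388). It was 0.65 higher in BDL than in MZ B cells and 0.74 higher in MZ than in FO B cells (limma adjusted p = 0.0291 and 0.0174). Both were short of 2-fold on that scale, while the ratios of mean FPKM were 1.93 and 2.93. With a constant of 0.01 the MZ and FO difference was 1.40 and was called. The FO values rest on about 13.6 to 23.1 fragments per library.

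Most other genes of TGF-beta latency were not called. *Nrros*, which holds latent TGF-beta on myeloid cells and microglia, was at 45.2 to 48.2 FPKM in FO, 36.7 to 40.4 FPKM in BDL and 50.3 to 59.2 FPKM in MZ B cells. It was lower in BDL than in MZ B cells (log2 difference -0.46, limma adjusted p = 0.00429), short of 2-fold, and its difference from FO B cells was -0.26 (limma adjusted p = 0.103). *Ltbp1* was at most 0.00688 FPKM and *Ltbp3* at most 0.0270 FPKM in any library, under the minimum for the test. Of the 17 genes of the list on TGF-beta ligands and latency 8 were tested. In BDL against FO B cells 2 rose (*Lrrc32* and *Ltbp4*) and 0 fell, in BDL against MZ B cells 1 rose (*Lrrc32*), and in MZ against FO B cells 1 rose (*Itgb1*, an integrin subunit, by 1.48, limma adjusted p = 3.08e-04). The list medians were 0.17, 0.05 and 0.16.

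The receptors and Smad proteins that carry the TGF-beta signal were called by limma in BDL against FO B cells in 0 of 15 tested genes, of 17 listed (1 higher and 1 lower at an unadjusted p under 0.05), with a median of -0.06. In BDL against MZ B cells 2 fell and 0 rose (list median 0.02), and in MZ against FO B cells 2 rose and 1 fell (list median -0.14). *Smad3*, which carries the signal to the nucleus, was at 20.4, 27.8 and 21.0 FPKM in MZ B cells, 7.39, 9.01 and 8.71 in BDL and 6.51, 7.15 and 7.46 in FO B cells. The MZ libraries stood above the rest, with log2 differences of -1.44 for BDL against MZ and 1.68 for MZ against FO B cells (limma adjusted p = 1.38e-04 and 5.03e-05). *Pmepa1*, a TGF-beta target that limits the pathway, differed by -1.85 and 2.54 (limma adjusted p = 1.80e-04 and 2.83e-05). *Smad7*, an inhibitor of the pathway, fell in MZ against FO B cells (-1.03, limma adjusted p = 0.00530).

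*Ccl22* (chromosome 8, 97269490 to 97275599, plus strand, 3 exons) was at 0, 0.0199 and 0.103 FPKM in FO B cells, 0.544, 0.591 and 0.459 in BDL and 0.555, 0.566 and 0.641 in MZ B cells. The FO libraries were below all others, and BDL and MZ B cells overlapped. The BDL mean of 0.531 ± 0.0669 FPKM and the MZ mean of 0.587 ± 0.0471 were 13.02 and 14.40 times the FO mean of 0.0408 ± 0.0544, which rests on about 0, 2.6 and 13.2 fragments. These ratios turn on single FO libraries and ranged from 8.68 without FO replicate 1 to 53.5 without FO replicate 3 for BDL, and from 9.60 to 59.2 for MZ B cells. *Ccl22* rose by 2.23 in BDL and by 2.35 in MZ B cells over FO B cells (SE 0.252, limma adjusted p = 0.00228 and 2.32e-04). BDL and MZ B cells differed by -0.13 with a 95% interval of -0.70 to 0.45, and that sign turned with quantile normalization (0.07). *Ccl17*, which encodes the other ligand of CCR4, was at 0.153 to 0.425 FPKM in FO, 0.291 to 0.380 in BDL and 0.238 to 0.282 in MZ B cells and was not called in any comparison.

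*Ccl3* (chromosome 11, 83461346 to 83462857, minus strand, 3 exons) was at 3.22, 4.41 and 4.33 FPKM in FO B cells, 3.01, 3.57 and 4.16 in BDL and 19.99, 32.30 and 23.97 in MZ B cells. The MZ libraries did not overlap the others, and BDL and FO B cells did. The MZ mean of 25.4 ± 6.28 FPKM was 7.09 times the BDL mean of 3.58 ± 0.574 and 6.38 times the FO mean of 3.99 ± 0.666. *Ccl3* fell in BDL against MZ B cells (log2 difference -2.78, limma adjusted p = 3.78e-05) and rose in MZ over FO B cells by 2.63 (limma adjusted p = 4.15e-05). BDL and FO B cells differed by -0.15 (95% interval -0.62 to 0.32). Beside *Il10* and *Ccl3*, the myeloid list summed to 13.6 to 20.3 FPKM in MZ B cells, above the FO range of 8.35 to 11.9, and 1 of its 7 tested genes, *Itgam*, was called higher in MZ than FO B cells (log2 difference 1.10). *Cd68* was at 8.48 to 11.9 FPKM in MZ and 4.93 to 5.63 FPKM in FO B cells, and the defining gene *Lyz2* at 0.895 to 3.25 and 0.683 to 2.87 FPKM. Of the dendritic cell list, *Itgax* and *Siglech* were called higher in MZ than FO B cells (1.73 and 1.26) and *Ccr7* and *Cd209a* lower (-1.77 and -2.01). The part of such cells was not tested. *Ccl4*, a chemokine closely related to *Ccl3*, was at 9.36, 14.0 and 14.3 FPKM in MZ, 3.87, 4.74 and 6.83 in BDL and 3.58, 5.56 and 8.35 in FO B cells. It fell in BDL against MZ B cells (-1.28, limma adjusted p = 0.0212) and rose in MZ over FO B cells by 1.148 (limma adjusted p = 0.0329).

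Of the 36 chemokines listed 15 were tested. In BDL against FO B cells 1 rose (*Ccl22*) and 0 fell, with a list median of -0.13. In BDL against MZ B cells 0 rose and 3 fell, namely *Ccl3*, *Ccl4* and *Cxcl10*, a ligand of CXCR3 (-1.62, limma adjusted p = 0.00390), with a list median of 0.03. In MZ against FO B cells 4 rose (*Ccl3*, *Ccl22*, *Ccl4* and *Cxcl10*) and 2 fell (*Cxcl5* and *Cxcl16*), with a list median of 0.01.

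**Figure D4:**
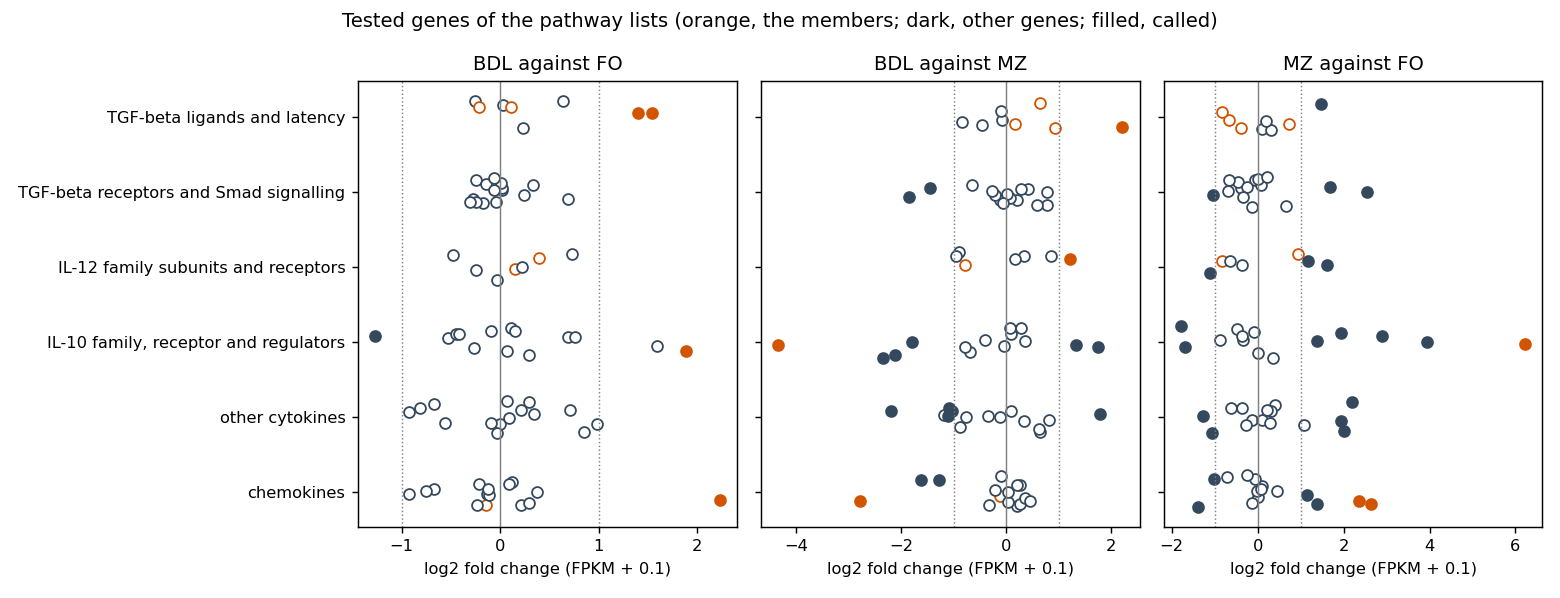
The log2 difference of FPKM + 0.1 (x axis, a separate scale for each panel) of every tested gene of the 6 pathway lists (rows), with the 10 genes of interest in orange, other genes in dark blue, called genes filled and dotted lines at 2-fold. In BDL against FO B cells the filled points are *Lrrc32*, *Ltbp4*, *Il10*, *Socs3* and *Ccl22*, and no gene is filled in the rows of TGF-beta receptors, the IL-12 family and other cytokines.

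The genes whose pattern over the 9 libraries was most like that of each member were found by the Pearson correlation of log2(FPKM + 0.1) over the 11596 rows whose mean reached 0.5 FPKM. For most members the libraries of a subset lie close together, so these correlations describe subset levels and carry no p. For *Il10* they were *2010012O05Rik*, *Csf2rb2* and *Csf2rb* (r of 0.9971, 0.9969 and 0.9962). *Csf2rb*, the common beta chain of the receptors for IL-3, IL-5 and GM-CSF, had means of 1.99, 5.02 and 23.6 FPKM in FO, BDL and MZ B cells. For *Ltbp4* they were *Actn1*, *Bhlhe41* and *Ccnd2* (0.9827, 0.9787 and 0.9761), and *Ccnd2*, which encodes cyclin D2, had means of 5.27, 24.5 and 10.5 FPKM. For *Lrrc32* they were *Cecr2*, *Scn4a* and *Wdr46* (0.9795, 0.9789 and 0.9778), and *Cecr2* had means of 3.58, 8.00 and 2.59 FPKM. *Ccl22* was most like *2310009B15Rik*, *2900008C10Rik* and *Mcts1* (0.9857, 0.9853 and 0.9812), and *Ccl3* was most like *Ccdc102a*, *Pde4d* and *Plekhg3* (0.9961, 0.9957 and 0.9948). *Ebi3* was most like *Limk1*, *Hemt1* and *Sesn3* (0.9902, 0.9879 and 0.9865), *Il12a* most like *Arhgap17*, *Cops7b* and *Arvcf* (0.9726, 0.9724 and 0.9701), and *Tgfb1* most like *Ppp3ca*, *Tpm3* and *Plcl2* (0.9978, 0.9966 and 0.9949). *Tgfb3* had the lowest values, with *Cytip*, the cytotoxic granule gene *Nkg7* and *Slc16a6* (0.9351, 0.9291 and 0.8999). Its correlations do not describe subset levels alone, since *Tgfb3* was highest in replicate 3 of each subset. *Nkg7* had means of 0.639, 0.616 and 0.580 FPKM in FO, BDL and MZ B cells.

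The calls of *Il10*, *Lrrc32* and *Ltbp4* in BDL over FO B cells were lost with a constant of 1, where their log2 differences were 0.68, 0.44 and 0.31, as was that of *Ccl22* (0.56). That constant also ended the calls of *Lrrc32* in BDL over MZ B cells (0.55) and of *Ccl22* in MZ over FO B cells (0.61). The calls of *Il10*, *Lrrc32* and *Ltbp4* were also lost with replicates 1 and 2 only, where the differences were 1.70, 1.54 and 1.38 and the limma adjusted p was 0.0723, 0.0725 and 0.0725. Over the alternatives the highest adjusted p was 0.0723 for *Il10* and 0.0725 for *Lrrc32* and *Ltbp4*, and the lowest was 9.11e-04, 0.00232 and 0.00124.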

How the data were processed

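RNA-seq of sorted splenic FO, BDL and MZ B cells was analysed, 3 libraries per subset. The authors aligned reads to mouse genome mm9 with TopHat2 2.1.0, computed FPKM with Cufflinks and deposited 1 FPKM per gene and library. The annotation is not given in the sources used here. Columns summed to 446033 to 517208 FPKM, were used as deposited, and 0 columns were left unmapped. A file of the authors' own Cuffdiff comparisons (fold changes and p-values) was not used.

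The 13472 rows whose mean reached 0.1 FPKM entered a limma fit (version 3.58.1, R 4.3.3) of log2(FPKM + 0.1) with a trended eBayes step, all 9 libraries and the subset as the only term. Adjusted p-values are Benjamini-Hochberg values over all rows tested. The minimum was set low because 0.5 FPKM would leave low cytokine genes out. Exact permutation tests were two-sided. The members and gene lists were chosen with earlier results of these data known. Text names were fixed as the members, up to 4 called genes per list with the largest differences, fixed partner and latency genes, and the 3 most similar genes of each member. The marker genes were fixed as lists, and single ones are named for their level. Some markers are not reported here.

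The main fit was not paired. Libraries that share a date in their titles were taken as pairs for the replicate block and the following correlations. The correlation of their deviations from the subset mean was 0.149, 0.053 and -0.051 for BDL and FO, 0.109, 0.251 and 0.190 for BDL and MZ, and 0.029, 0.021 and 0.019 for MZ and FO B cells (replicates 1 to 3).

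Positions came from GENCODE M1 on NCBIM37, which holds 20901 of 23954 symbols (87.3%), and promoters from RefSeq on GRCm38.p6. Figures were drawn with matplotlib 3.10.9.

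Alternatives were other constants, minimums and scalings, the 6 libraries of a comparison, the replicate block, no trend, repeated symbols summed, the adjusted p alone and each library left out. Replicates 1 and 2 only, the block with no minimum or with a constant of 0.01, and the contrast of replicate 3 were chosen after seeing the data.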

Additional observations from a re-analysis of the deposited data

How the results depend on the processing

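The alternatives left 251 of 288 counts of calls within 1.5 times of the reported count, and 596 of 630 differences of single members on the same side of the threshold and in the same direction. In BDL against FO B cells, 266 genes were higher and 41 lower. The higher count was 78 with a constant of 1, 150 with a minimum of 1 FPKM, 866 by the adjusted p alone and 79 with replicates 1 and 2 only. The lower count was 17 with a constant of 1, 26 with the 6 libraries of the comparison, 236 by the adjusted p alone, 14 with replicates 1 and 2 only and 18 to 44 with a library left out (26 without FO replicate 1, 18 without FO replicate 2). The 4 members higher in BDL were 0 with a constant of 1 and 1 with a minimum of 0.5 or 1 FPKM or with replicates 1 and 2 only; *Lrrc32*, *Ltbp4* and *Ccl22* had means under those minimums and were not tested there.

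In BDL against MZ B cells, 508 genes were higher and 679 lower. The higher count was 267 with a constant of 1 and 2107 by the adjusted p alone, and the lower count was 355, 419 (minimum of 1 FPKM) and 1670. The 2 members higher in BDL were 1 with a constant of 1, with a minimum of 0.5 or 1 FPKM and with replicates 1 and 2 only, 4 by the adjusted p alone, and 1 to 3 with a library left out (1 without MZ replicate 3). In MZ against FO B cells, 892 genes were higher and 484 lower. The higher count was 413 with a constant of 1, 525 with a minimum of 1 FPKM and 2051 by the adjusted p alone, and the lower count was 268 with a constant of 1 and 1688 by the adjusted p alone. The 3 members higher in MZ B cells were 5 by the adjusted p alone, and the 0 lower were 1 with a constant of 0.01 (with or without the block), 2 by the adjusted p alone and 0 to 1 with a library left out (1 without MZ replicate 2). Beyond those that follow from the setting's own construction, the cause was not tested.

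With a library left out, differences that were not called turned sign for *Tgfb1* (-0.0761 in BDL against FO, range -0.0761 to 0.21) and *Tgfb3* (0.0746 in BDL against FO, range -0.45 to 0.0746; -0.05, -0.15 and -0.22 in BDL against MZ, range -0.22 to 0.91; 0.00406 in MZ against FO, range -1.12 to 0.00406). *Ccl22* in BDL against MZ turned to 0.0654 with quantile normalization and to 0.0148 with replicates 1 and 2 only. Upper quartile scaling moved the median of all genes in BDL against MZ from 0.04 to -0.07 and turned no member's sign.

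The replicate block moved the genes lower in BDL than FO B cells from 41 to 64, or 97 with a constant of 0.01, and changed no call of a member; the other counts with the block alone stayed within 1.5 times. Depth limits *Il6*, *Lrrc32* in MZ and *Ccl22* in FO B cells most, since they rest on few fragments.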

Other observations

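Of 28 other cytokine genes 15 were tested, and limma called 0 in BDL against FO B cells (3 higher and 3 lower at an unadjusted p under 0.05). In BDL against MZ B cells 1 rose and 4 fell, and in MZ against FO B cells 3 rose and 2 fell. The list medians were 0.07, -0.34 and 0.21. *Ifng*, which encodes interferon gamma, was at 0.654, 0.960 and 0.991 FPKM in BDL, 0.395, 0.493 and 0.575 FPKM in FO and 0.137, 0.140 and 0.279 FPKM in MZ B cells, and it rose in BDL over MZ B cells by 1.78 (limma adjusted p = 1.00e-03). The BDL libraries were above all others. Beside *Ifng*, the NK cell list summed to 1.908 to 3.995 FPKM in BDL and 0.840 to 3.989 FPKM in MZ B cells, and its gene *Klrb1c* rose in BDL over MZ B cells by 1.06 (limma adjusted p = 0.0417). The part of such cells was not tested.

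*Tnfsf18*, which encodes GITRL, was at 0.765, 0.592 and 0.689 FPKM in MZ, 0.317, 0.252 and 0.235 in BDL and 0.0938, 0.103 and 0.115 in FO B cells. The subsets did not overlap, and MZ B cells were highest, with a log2 difference of 1.93 over FO B cells (limma adjusted p = 3.73e-05) and of -1.09 for BDL against MZ B cells (limma adjusted p = 0.00102). BDL were 0.85 above FO B cells (limma adjusted p = 0.0127), short of 2-fold on the log2(FPKM + 0.1) scale and so not among the calls. The mean was 0.268 FPKM in BDL and 0.104 FPKM in FO B cells, and the added constant lowers the fold of so low a gene. The study reported *Tnfsf18* as higher in BDL than in FO B cells in this RNA-seq. By blocking and gene deletion, it found that BDL needed GITRL to expand regulatory T cells. *Il15* had the same order, with 0.737, 1.11 and 0.907 FPKM in MZ, 0.455, 0.340 and 0.394 in BDL and 0.133, 0.149 and 0.169 in FO B cells. *Csf2*, which encodes GM-CSF, was listed at 0 in every FO and BDL library and at 0.600, 0.359 and 0.195 FPKM in MZ B cells. It passed the minimum of the test only through these MZ values, and it is among the genes called between MZ B cells and each other subset. *Tnf* fell in BDL against MZ B cells (log2 difference -1.11, limma adjusted p = 0.0174).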
